A study of Mus musculus with 2 samples.

Results

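The 10 genes Apoe, Apoc1, Apoc2, Trem2, Gpnmb, Fabp5, Lpl, Spp1, Cd9 and Cd36 are known as genes of lipid-associated macrophages, and their counts are described here in mouse pancreatic tumours. They form a list of names whose rule uses no measured value, although the list was drawn up with earlier results of these data known, and they make up 10 of the 32285 genes counted in both libraries. All 10 were detected in both libraries.

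Macrophages that take up lipid from dying cells and lipoproteins carry it to the lysosome, store part of it as droplets and return cholesterol to lipoprotein particles. Trem2 is the surface receptor for lipids and apolipoproteins that is best known for driving this state, and it signals through the adaptor Tyrobp. In tumours such macrophages are often described by high Trem2, Spp1 and Gpnmb, although several of these genes are also made by epithelial and stromal cells.

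The study asked what loss of WNT secretion from myeloid cells does to the tumour and its immune cells. KPC cells, a mouse pancreatic cancer line, were implanted into the pancreas of every mouse, and tumours were taken 21 days later. The control mice were Porcnfl/fl littermates, labelled WT, and the knockout mice were Csf1r-Cre;Porcnfl/fl, so both groups carried the floxed allele of Porcn, the acyltransferase that WNT proteins need for secretion. The Csf1r promoter that drives Cre is active in monocytes, macrophages and some other myeloid cells. The labels give no age or sex and do not say whether the control mice carried Cre.

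Tumours of 5 mice were pooled into 1 droplet library for each genotype, so no replicates exist and no test between genotypes is possible. Every interval given is an exact 95% interval on counted transcripts (UMIs, unique molecular identifiers) or cells, and covers counting error only. After filtering, 11516 control and 10467 knockout cells were kept, with medians of 12168 and 10109 UMIs per cell. Cells were clustered and named from marker genes. This gave 498 control and 544 knockout monocyte/macrophage-like cells, with medians of 2774 and 4016 UMIs, in which all 14 markers of the class were detected in each library. Porcn itself had 1212 UMIs in all control and 637 in all knockout cells (7.18 and 4.93 CPM, UMIs per 1000000 UMIs of the same cells). In the monocyte/macrophage-like class it had 7 and 3 UMIs, too few to check the deletion, and counts of 3′ ends may not cover the deleted exons. In all, 46 cell barcodes occurred in both libraries, 1 of them in this class.

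Less than 50% of each gene's UMIs lay in monocyte/macrophage-like cells, except for Cd36 among control cells and for Trem2 and Fabp5 among knockout cells. In CPM, monocyte/macrophage-like cells had the highest level of 5 of the 10 genes among 10 control populations of at least 50 cells, and of 4 of the 10 among 14 knockout populations. They came first in both libraries for Apoe, Trem2, Gpnmb and Fabp5, and in the control library for Cd36. The control level of Gpnmb was within counting error of that in an unnamed cluster, L5, whose leading genes mixed several cell types.

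**Figure D1:**
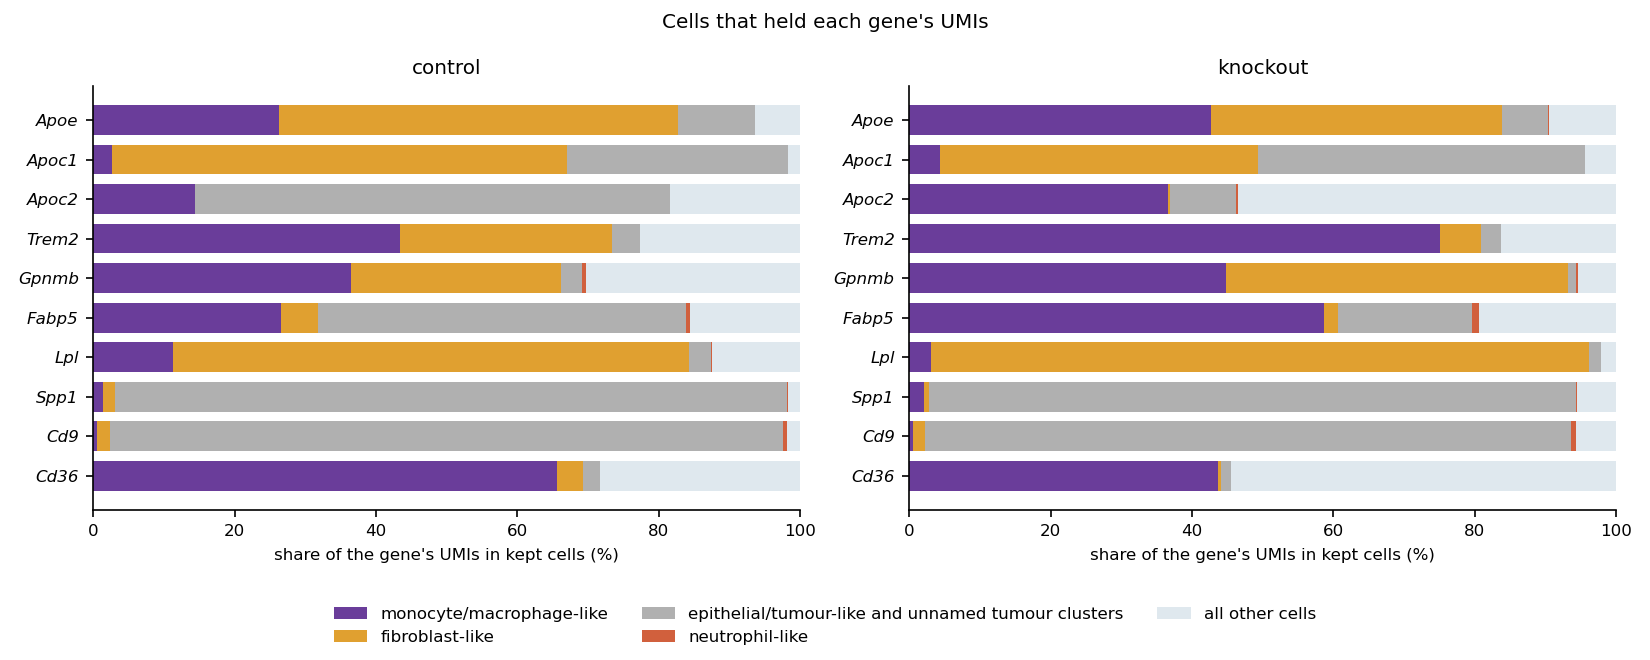
Share of each gene's UMIs (x axis, percent of the gene's UMIs in kept cells) held by monocyte/macrophage-like, fibroblast-like, tumour, neutrophil-like and all other cells, in the control and the knockout library. Monocyte/macrophage-like cells held 43.5% and 75.2% of Trem2 UMIs but 1.3% and 2.1% of Spp1 UMIs.

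Spp1, which encodes the secreted matrix protein osteopontin, was mainly a tumour-cell transcript. Of 576063 Spp1 UMIs in kept control cells, 71.1% were in epithelial/tumour-like cells and 24.1% in unnamed tumour clusters. In the knockout library these shares were 66.3% and 25.2% of 216164 UMIs. Monocyte/macrophage-like cells held 1.3% and 2.1%. The tetraspanin Cd9 likewise had few of its UMIs there, 0.497% and 0.545%.

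Lpl, the lipase that releases fatty acids from lipoproteins, was mainly stromal. Fibroblast-like cells held 73% and 93.1% of its control and knockout UMIs, against 11.3% and 3.05% in monocyte/macrophage-like cells. Apoc1, an apolipoprotein of the same gene cluster as Apoe, lay mostly in fibroblast-like cells (64.3% and 45%) and epithelial/tumour-like cells (31.1% and 46.2%). Only 14 and 23 Apoc1 UMIs were in monocyte/macrophage-like cells, so little can be said of this gene there. The scavenger receptor and fatty acid transporter Cd36 was shared with cDC1-like cells, a class of dendritic cell, at 125 CPM in the control and 171 in the knockout library. Those cells held 8.52% and 36.5% of its UMIs.

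Transcripts released from broken cells are a background in droplets, and T-like cells, which should make little of these genes, give its size. With every cell thinned to 1000 UMIs, which left out 14 control and 10 knockout monocyte/macrophage-like cells, a Trem2 UMI was found in 13.2% of control and 9.93% of knockout cells of that class. The shares in T-like cells were 0.549% and 0.25%. Without thinning, at the median depths given above, the shares for Trem2 were 31.7% and 34%. The background of Spp1 was larger, since 24.7% of control and 7.75% of knockout T-like cells held a Spp1 UMI after thinning. The shares in monocyte/macrophage-like cells were 43.8% and 24.2%. Cd9 was counted in T-like cells as well, at 49.5 and 62.5 CPM, against 426 and 233 in monocyte/macrophage-like cells. T-like cells had median depths of 2823 and 3328 UMIs.

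Few cells held several of Trem2, Gpnmb, Lpl and Cd36 at once. The other members were not part of this count, and some were found far more often. Without thinning, 91.3% of control cells of the unnamed macrophage cluster M0 held a Spp1 UMI and 84.1% a Cd9 UMI. After thinning, a UMI of at least 2 of Trem2, Gpnmb, Lpl and Cd36 was found in 30 of 484 control cells of the class (6.2%, interval 4.22 to 8.73) and in 14 of 534 knockout cells (2.62%, interval 1.44 to 4.36). The count was 0 of 1599 knockout T-like cells, which allows a share of up to 0.188% when taken as 3 cells, and of 0.23% as the exact upper limit. In the unnamed macrophage cluster M0 the share was 20.6% of 68 control cells and 13.2% of 38 knockout cells. It was 6 of 9 cells in M3, a small cluster of control cells described further on.

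Between the genotypes, Apoe and Apoc2 were higher in knockout monocyte/macrophage-like cells, while Spp1, Lpl, Cd9 and Cd36 were lower. A gene was counted as higher or lower past a ratio of 1.5, among genes with at least 20 UMIs over both libraries. By that rule 2 of the 10 members were higher, where 7.66% of the 10037 genes tested were, and 4 were lower, where 9.75% of all genes were. The median log2 ratio of knockout over control was -0.23 for the members and -0.03 for all genes. The members' median lay between genes that differed in opposite directions.

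**Figure D2:**
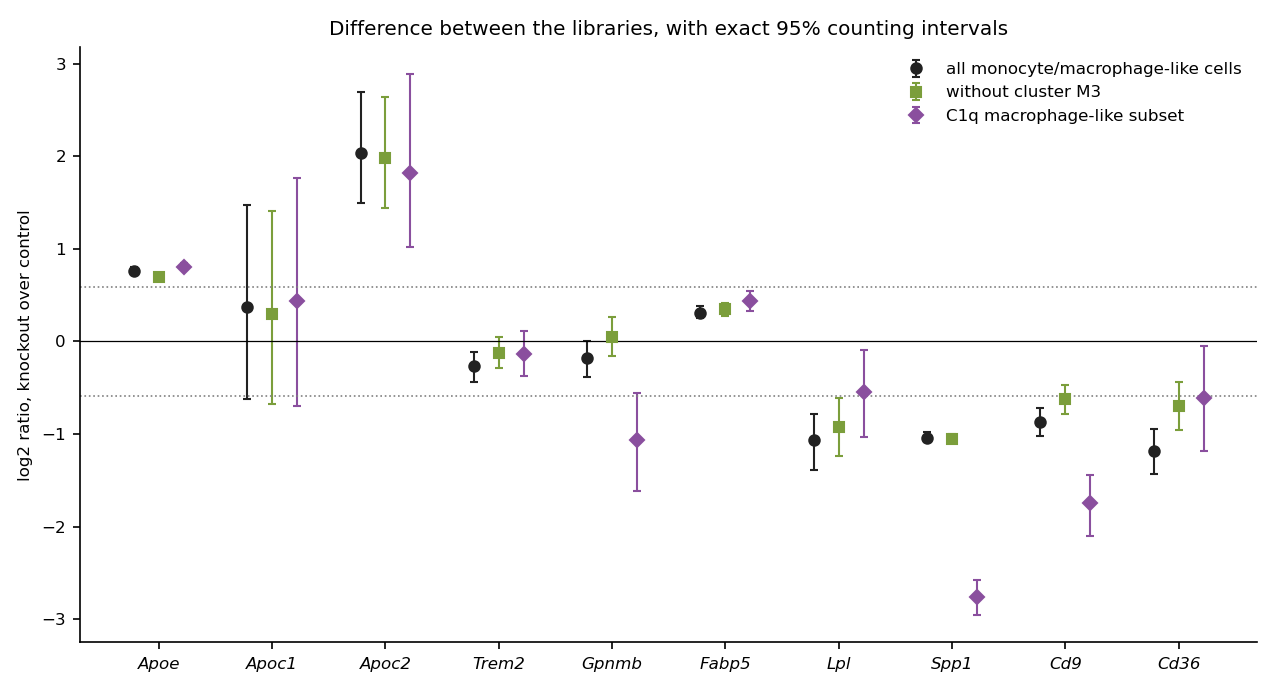
The log2 ratio of knockout over control (y axis) for each gene in all monocyte/macrophage-like cells, in the same cells without cluster M3 and in the C1q macrophage-like subset. Bars are exact 95% counting intervals and dotted lines mark a ratio of 1.5 in either direction. Apoe and Apoc2 lie above the upper line in all 3 series, and Spp1 and Cd9 below the lower line.

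Apoe, the ligand of lipoprotein receptors that carries cholesterol out of macrophages, stood at 3904 CPM in control and 6627 in knockout monocyte/macrophage-like cells. The log2 ratio was 0.76 (interval 0.73 to 0.80). Without thinning, a UMI was seen in 49.6% of control and 61.9% of knockout cells. These shares depend on depth, and the cells had medians of 2774 and 4016 UMIs. Apoc2, the cofactor that activates lipoprotein lipase, stood at 13.1 CPM from 29 control UMIs and 55.3 CPM from 152 knockout UMIs. Its log2 ratio was 2.04 (interval 1.50 to 2.70), the widest difference among the members. The UMIs came from 17 control and 91 knockout cells, so the higher knockout level was spread over many cells. Apoc1 had 6.33 and 8.37 CPM, with an interval for the log2 ratio of -0.62 to 1.48 that spans no difference. The 3 genes lie within 27.6 kb of chromosome 7, with Apoe at chr7:19696109-19699188 and Apoc2 at chr7:19671579-19677941, both on the minus strand (GRCm38).

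Apoe was higher in the knockout library in several other populations. Mesothelial-like cells had 377 and 1444 CPM (log2 ratio 1.93), and plasma-like cells 33.5 and 358 (3.35). Fibroblast-like cells had 1900.1 and 2435 (0.36), within 1.5. T-like cells had 7.28 and 80.7. A single knockout lymphocyte-like cell held 422 Apoe UMIs. After thinning, 1.44% of knockout T-like cells and 14.9% of knockout B-like cells held an Apoe UMI, so the share differed between lymphocyte classes. Apoe was lower in cDC1-like cells, at 90.4 and 38.8, and in acinar-like cells, at 47.8 and 22.4. Apoc2 was also a transcript of plasma-like cells, which had 38.1 and 62.7 CPM and held 44.3% of the gene's knockout UMIs. Fibroblast-like cells had 0 and 1 Apoc2 UMIs.

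The stretches of 250 bases before the annotated starts of Apoe and Apoc2, the pair that was higher, and of Spp1, Cd9 and Cd36, which were lower, are shown to let a reader compare them. They were taken from a table of RefSeq promoters (GRCm38.p6), in which 7 of the 10 members were matched. Apoc1, Fabp5 and Lpl were not matched there. Each is written 5′ to 3′ on the gene's strand, and capitals mark matches to the motifs searched. The regions are chr7:19699189-19699438 on the minus strand, chr7:19677942-19678191 on the minus strand, chr5:104434861-104435110 on the plus strand, chr6:125494761-125495010 on the minus strand and chr5:17835897-17836146 on the minus strand. The Cd36 start lies inside the gene's annotated span, chr5:17781690-17888801.
Apoe: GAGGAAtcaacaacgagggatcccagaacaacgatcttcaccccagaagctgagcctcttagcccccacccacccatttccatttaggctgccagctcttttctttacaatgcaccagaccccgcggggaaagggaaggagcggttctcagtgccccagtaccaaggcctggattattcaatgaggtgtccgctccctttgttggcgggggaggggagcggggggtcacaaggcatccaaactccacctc
Apoc2: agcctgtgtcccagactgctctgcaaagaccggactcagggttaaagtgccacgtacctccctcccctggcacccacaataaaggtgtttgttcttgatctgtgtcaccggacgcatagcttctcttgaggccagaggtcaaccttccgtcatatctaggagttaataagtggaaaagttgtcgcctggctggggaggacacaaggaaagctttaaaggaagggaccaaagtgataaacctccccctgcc
Spp1: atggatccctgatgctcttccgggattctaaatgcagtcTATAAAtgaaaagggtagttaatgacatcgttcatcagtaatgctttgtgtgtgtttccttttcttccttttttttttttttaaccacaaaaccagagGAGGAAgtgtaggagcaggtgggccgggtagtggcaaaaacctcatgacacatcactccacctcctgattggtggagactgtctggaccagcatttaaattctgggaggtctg
Cd9: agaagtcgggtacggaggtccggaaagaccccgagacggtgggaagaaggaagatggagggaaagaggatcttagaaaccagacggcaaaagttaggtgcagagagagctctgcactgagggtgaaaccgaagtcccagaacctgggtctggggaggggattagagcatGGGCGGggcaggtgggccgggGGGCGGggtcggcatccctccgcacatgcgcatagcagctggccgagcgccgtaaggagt
Cd36: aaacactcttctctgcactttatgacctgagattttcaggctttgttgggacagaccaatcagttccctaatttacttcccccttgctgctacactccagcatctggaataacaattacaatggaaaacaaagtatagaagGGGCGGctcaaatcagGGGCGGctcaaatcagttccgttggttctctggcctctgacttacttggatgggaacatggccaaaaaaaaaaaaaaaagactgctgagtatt

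Motifs were searched on both strands of these stretches and of 32851 promoters of the same length. The motif of PU.1, the lineage factor of macrophages, was read as GAGGAA and occurred in 23.3% of all promoters. It stood 250 bases before the Apoe start and 113 bases before the Spp1 start. The AP-1 motif was read as TGANTCA (6.75% of all promoters). The E-box bound by the MiT factors, the family of Mitf and Tfec, was read as CACGTG (6.02%). Neither of these, nor the LXR element of the DR4 type (0.0152%), occurred in the 5 stretches. The GC box was read as GGGCGG (32.7%) and stood 81 and 60 bases before the Cd9 start, and 109 and 93 bases before the Cd36 start. The TATA box was read as TATAAA (12.4%) and stood 211 bases before the Spp1 start. The Apoc2 stretch held none of the motifs. A match is only a run of letters.

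Trem2 and Gpnmb, the receptor and the glycoprotein that most often define lipid-associated macrophages, differed little over the whole class. Trem2 stood at 273 CPM in the control and 226 in the knockout library (log2 ratio -0.27, interval -0.44 to -0.11). Gpnmb stood at 184 and 162 (log2 ratio -0.18, interval -0.38 to 0.01). Neither passed a ratio of 1.5, and the sign of both turned with the processing, from -0.33 to 0.21 for Trem2 and from -0.92 to 0.09 for Gpnmb.

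Fabp5, a carrier of fatty acids in the cytoplasm, was measured at 1292 and 1606 CPM (log2 ratio 0.31, interval 0.25 to 0.38). The mouse genome holds processed copies of Fabp5, and reads shared with them may be counted differently, which was not tested. Lpl stood at 111 and 52.4 (log2 ratio -1.07, interval -1.39 to -0.78), although the share of thinned cells with an Lpl UMI was alike, 6.82% and 5.81%. The 10 cells richest in Lpl held 60% of its control UMIs and 48.6% of its knockout UMIs.

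Cd36 stood at 188 CPM in the control and 82.6 in the knockout library (log2 ratio -1.18, interval -1.43 to -0.95). Cd9 stood at 426 and 233 (log2 ratio -0.87, interval -1.02 to -0.72). Both rested in part on one small cluster. Cluster M3 held 10 cells, all from the control library, led by Pf4, Lyz2, Cd36 and Ctss. With 4.22% of the UMIs of the control class it held 31.7% of its Cd36, 19.3% of its Cd9, 18.7% of its Gpnmb, 14.3% of its Lpl and 13.7% of its Trem2 UMIs.

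The M3 cells had 1412 CPM of Cd36, 1947 of Cd9, 888 of Trem2 and 813 of Gpnmb, the highest levels of these 4 genes among the macrophage subsets and clusters. Lpl stood at 374 there, also the highest of the named subsets and unnamed clusters. All 10 M3 cells held a Cd9 UMI, 9 held a Cd36 UMI and 7 a Trem2 UMI, but 4 held a Gpnmb UMI. Apoe was low there at 225, and Apoc1 and Apoc2 were at 0. All 14 monocyte/macrophage markers were detected, at 19042 summed CPM, beside 4 of 6 osteoclast markers at 2204 (Dcstamp and Mmp9 at 0) and 2 of 5 megakaryocyte markers at 6975 (Itga2b, Gp9 and Gp1bb at 0). The osteoclast sum was mostly Ctsk, at 1829. The megakaryocyte sum was nearly all Pf4, at 6964, a gene that also stood at 1052 in control cells of M0. A cluster found in 1 library may be a property of that library. Without M3 the log2 ratios were -0.70 for Cd36, -0.62 for Cd9, 0.05 for Gpnmb and -0.12 for Trem2, the members' median was -0.04, and still 2 members were higher (background 7.5%) and 4 lower (background 9.89%).

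Spp1 stood at 3381 CPM in control and 1649 in knockout monocyte/macrophage-like cells (log2 ratio -1.04, interval -1.09 to -0.98). It was lower in several other populations as well, with 3613 and 2090.4 in epithelial/tumour-like cells, 1009 and 199.9 in fibroblast-like cells and 582 and 182 in T-like cells. The class also differed in make-up. Cluster M0, with 4387 of the control and 3064 of the knockout Spp1 UMIs, made up 13.9% and 7.17% of its cells. The class values thus mix cluster make-up with level, and with subsets weighted alike the log2 ratio of Spp1 was -0.68. The 8 epithelial/tumour markers moved with Spp1 in monocyte/macrophage-like cells, at 269 summed CPM in the control (5 of 8 detected) and 164 in the knockout library (7 of 8 detected). With the mean UMI count of a lymphocyte-like cell of the same library subtracted per cell, the log2 ratio of Spp1 was -0.96 and that of Cd9 was -1.06. The lymphocyte mean of Spp1 rested in part on single cells, the median being 0. The richest lymphocyte-like cell held 66 of 432 Spp1 UMIs in the control and 312 of 1449 in the knockout library.

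**Figure D3:**
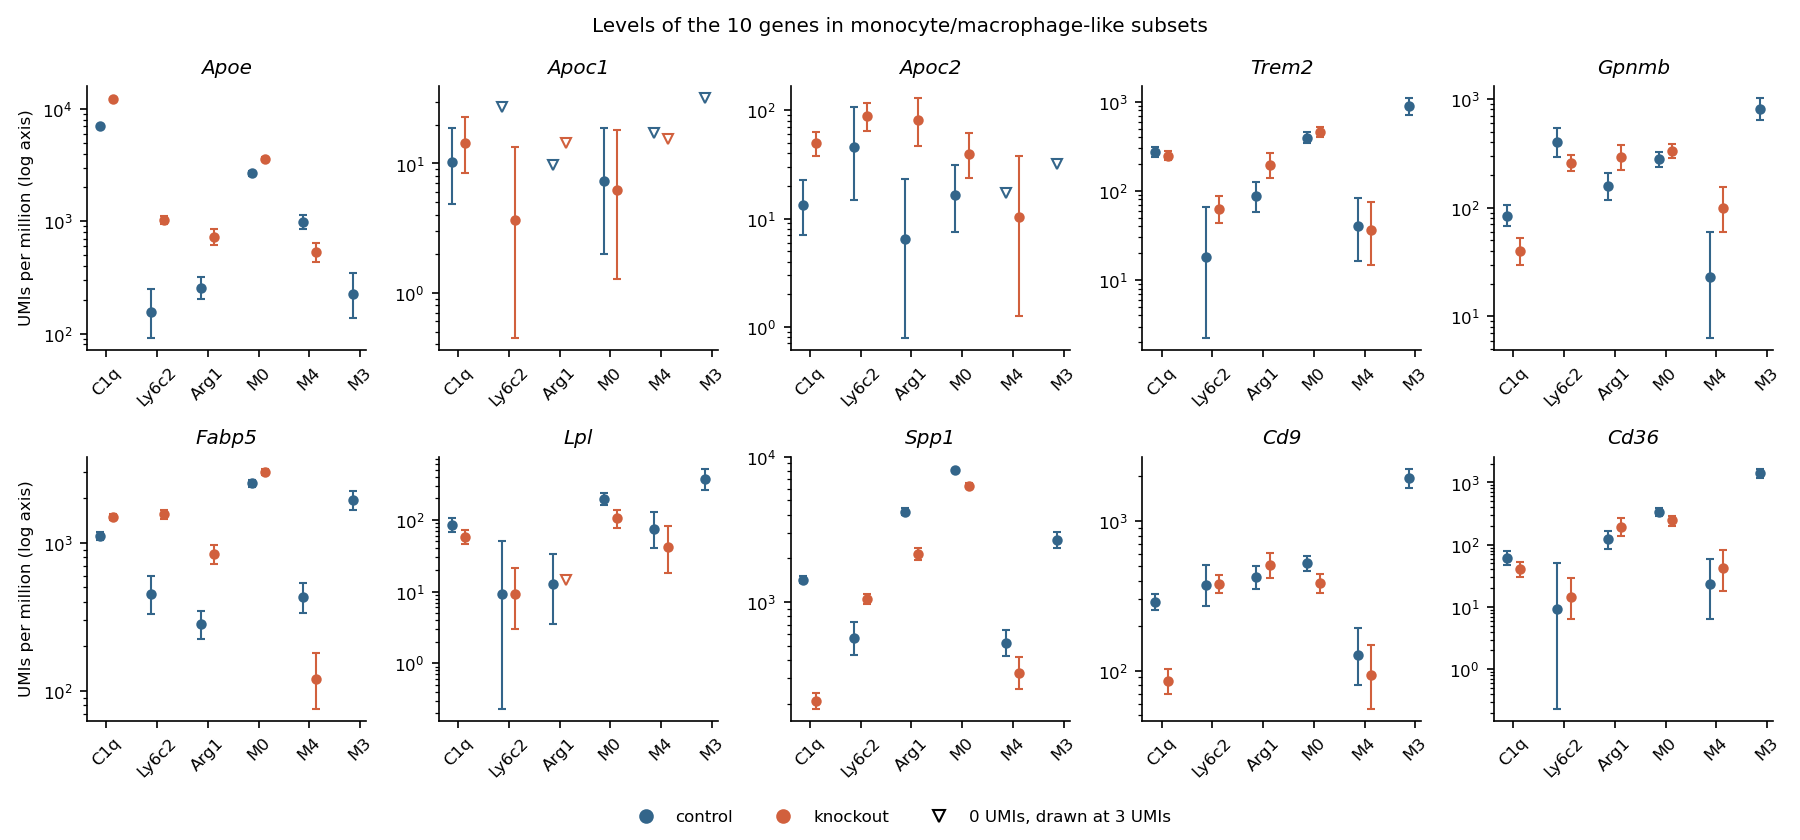
CPM (y axis, log scale) of each gene in 3 named subsets and 3 unnamed clusters of monocyte/macrophage-like cells, in the control and the knockout library. Bars are exact 95% counting intervals and open triangles mark populations with 0 UMIs, drawn at the level of 3 UMIs. Apoe peaks in the C1q subset, Spp1 in M0, and Cd9 and Cd36 in M3, which held control cells only. Cluster M11, with 10 knockout cells only, is not drawn.

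The members did not share one pattern over the subsets. C1q macrophage-like cells, 196 control and 222 knockout, had the highest Apoe, at 7014 and 12315 CPM. Cluster M0, 69 and 39 cells led by Mmp12, Chil3 and Arg1, had the highest Spp1 and Fabp5 of the named subsets and the unnamed clusters. In M0, Spp1 stood at 8043 and 6318, Fabp5 at 2526 and 3015, Trem2 at 396 and 458, and Gpnmb at 277 and 332. After the small cluster M3, this was the population in which Trem2, Gpnmb, Lpl and Cd36 were most often found in the same cell, and the libraries differed little in it: 1 of 9 members with enough UMIs was higher, Apoc2 (background 12.3%), and 1 was lower, Lpl (background 14.7%).

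Over 22 points, each a macrophage sub-cluster of at least 10 cells in 1 library, Gpnmb and Cd9 levels on the scale of log2 (CPM + 10) had a Pearson r of 0.81, Spp1 and Cd9 of 0.78, and Trem2 and Cd36 of 0.61. Apoe ran the other way, with r of -0.60 to Gpnmb and -0.61 to Cd9, but had 0.51 to Trem2. The points share libraries and differ in depth, so these values describe the pattern only.

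Within the C1q macrophage-like subset, Spp1 was the member with the widest difference. It stood at 1427 CPM in the control and 209.6 in the knockout library (log2 ratio -2.76, interval -2.96 to -2.58), and after thinning 31.9% and 13.2% of the cells held a UMI. T-like cells gave 24.7% and 7.75%, with intervals of 25.4 to 39.1 against 18.6 to 31.7 in the control and of 9.01 to 18.4 against 6.49 to 9.18 in the knockout library. The intervals overlapped in the control library and met only at their ends in the knockout library. Per cell, 7.15 and 1.18 Spp1 UMIs were counted, against 1.82 and 0.624 in lymphocyte-like cells, and 10 cells held 70.9% of the control UMIs. The 8 epithelial/tumour markers summed to 241 and 153 CPM in these cells. The genes that lead cluster M0, where Spp1 was highest, were lower as well: Chil3 stood at 832 and 48.6, Arg1 at 2655 and 1133 and Mmp12 at 699 and 349, while C1qa stood at 3545 and 4562. Their part in the result was not tested. With the lymphocyte level subtracted the log2 ratio was -3.41, and it was -1.76 with coarser sub-clusters and -0.93 with cells split by their own subset markers.

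Cd9 followed in the C1q subset, at 289 and 85.3 CPM (log2 ratio -1.75, interval -2.10 to -1.44). Lymphocyte-like cells had 62.2 and 66.6 CPM of Cd9, so the knockout level was close to theirs. Per cell, 1.45 and 0.482 Cd9 UMIs were counted, against 0.219 and 0.264 in lymphocyte-like cells, and 10 cells held 53.9% of the control UMIs. With the lymphocyte level subtracted the log2 ratio of Cd9 was -2.64. Gpnmb stood at 84.5 and 39.9 (-1.07, interval -1.62 to -0.56) and Cd36 at 62.1 and 40.6 (-0.61, interval -1.18 to -0.05). In all, 4 members were lower (background 11.5%) and 2 were higher, Apoe and Apoc2 (background 7.26%). Trem2 was held by similar shares of C1q cells, 16.2% and 18.2% after thinning, at 274 and 249 CPM. With coarser sub-clusters 4 members were higher, the median of the members was 0.29 in place of -0.34, and the log2 ratios of Cd9 and Lpl were -0.81 and 0.33. That of Cd36 was -1.76 with cells split by their own subset markers and -0.13 as a mean over cells, and passed 1.5-fold in 2 of 4 alternatives. That of Apoe was 0.58, just short of 1.5-fold, with cells split by their own markers.

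Ly6c2 monocyte-like cells, the recent arrivals from blood, were few in the control library, 29 against 133 knockout cells. Apoe stood at 156 and 1033 CPM there (log2 ratio 2.65, interval 2.04 to 3.52), Fabp5 at 449.5 and 1559.6 (1.77) and Spp1 at 569 and 1051 (0.87). Spp1 was thus higher in knockout monocyte-like cells and lower in the C1q subset, and this difference was not tested. The share of monocyte-like cells with a Spp1 UMI was 17.2% and 31.6% after thinning but 62.1% and 42.1% without it, and 10 cells held 56.9% of the knockout UMIs. Per cell, 2.14 and 4.31 UMIs were counted, against means of 1.82 and 0.624 in lymphocyte-like cells, so the control level was close to the lymphocyte mean. Of 7 members with enough UMIs, 5 were higher (background 13.8%) and 1, Gpnmb, was lower (background 21.9%). The 5 include Trem2, from 2 control and 34 knockout UMIs, and Apoc2, from 5 and 48, with its control UMIs in 1 cell. Both reached the threshold of 20 UMIs only through the knockout library, so this count is weak. The 17 control UMIs of Apoe came from 5 cells.

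Arg1 hypoxia macrophage-like cells numbered 104 and 37, with medians of 1996 and 4610 UMIs. Trem2 stood at 87.3 and 196 CPM there, Fabp5 at 281 and 840.4, Apoe at 255 and 726 and Gpnmb at 158 and 291. These and Cd36 made 5 of 7 members higher (background 15.6%), and Spp1, at 4167 and 2139, was the 1 that was lower (background 20%). The knockout levels rested on few cells. Of the 37 knockout cells, 10 held 100% of the Gpnmb and of the Cd36 UMIs, 97.2% of Fabp5, 95.1% of Trem2, 91.4% of Apoe and 90.6% of Spp1. Apoc2 was close to the threshold of 20 UMIs, with 2 control and 17 knockout UMIs. Cluster M4, 90 and 103 cells of low depth, had low levels of most members, such as 40.4 and 36.4 of Trem2. Apoe was lower in the knockout library there, at 988 and 531 (log2 ratio -0.89, interval -1.26 to -0.53), against its direction in the named subsets, and this difference was not tested. It rested on few cells, since 10 control cells of M4 held 91.2% of the control Apoe UMIs. Without thinning, the share of M4 cells with an Apoe UMI went the other way, 22.2% and 29.1%. Of 6 members with enough UMIs, 4 were lower, Apoe, Fabp5, Lpl and Spp1 (background 12.2%), and 1 was higher, Gpnmb, from 4 and 19 UMIs (background 18.9%).

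Outside the immune cells, Trem2 was found in mesothelial-like cells, the lining cells of the peritoneum, at a level like that of macrophages. It stood at 330.5 CPM in 45 control cells and 263 in 31 knockout cells, from 206 and 80 UMIs, and both libraries showed it. Most of the macrophage genes looked at were at or near 0 in these cells. Tyrobp, the adaptor that Trem2 needs to signal, had 1 and 0 UMIs, and C1qa had 1 and 1. Csf1r, the receptor whose promoter drives Cre, was an exception in the control cells, with 15 UMIs (24.1 CPM, against 244 in macrophages) and 1 knockout UMI. Cd68 had 6 and 2 UMIs. Of 33 control and 24 knockout mesothelial-like cells with a Trem2 UMI, 0 and 0 held a Tyrobp UMI, whereas 93.7% of 158 control and 92.4% of 185 knockout macrophage cells with Trem2 did. The mesothelial genes Msln and Upk3b stood at 614 and 542 in the control and 430.1 and 1277 in the knockout cells.

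**Figure D4:**
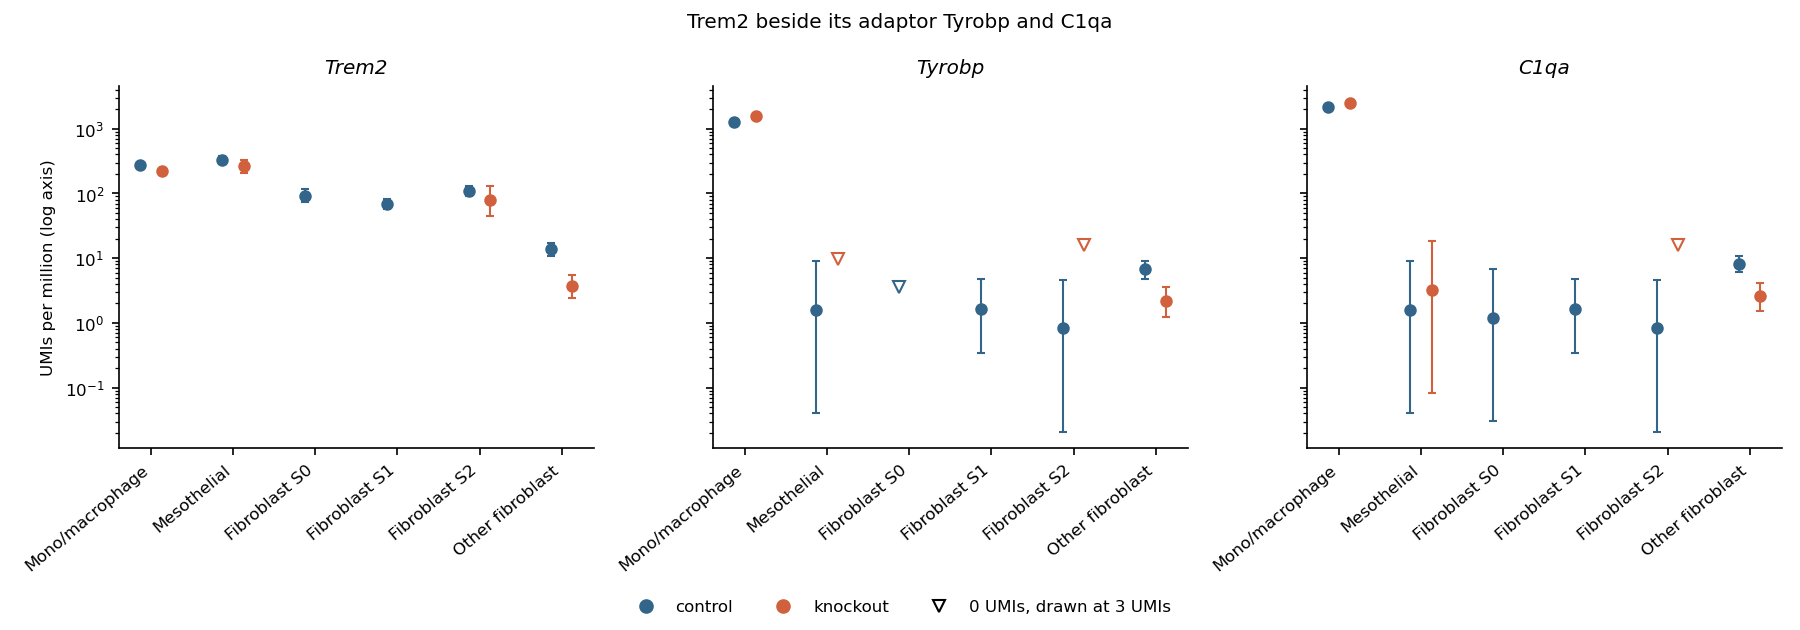
CPM (y axis, log scale) of Trem2, of its adaptor Tyrobp and of C1qa in monocyte/macrophage-like, mesothelial-like and fibroblast-like cells, in the control and the knockout library. Bars are exact 95% counting intervals, open triangles mark 0 UMIs drawn at the level of 3 UMIs, and groups of under 15 cells are left out. Trem2 stands at 330.5 in control mesothelial-like cells, where Tyrobp had 1 UMI.

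Trem2 was also present in fibroblast-like clusters S0, S1 and S2, at 92.8, 68.8 and 110.2 CPM in 31, 89 and 82 control cells. Their Tyrobp UMIs numbered 0, 3 and 1, and their Csf1r stood at 25.3, 14.3 and 12.3 CPM. These clusters held 202 of the 639 control and 25 of the 734 knockout fibroblast-like cells. Over all fibroblast-like cells Trem2 stood at 42.6 in the control and 6.53 in the knockout library (log2 ratio -2.68, interval -3.17 to -2.27). Within S2, which held 16 knockout cells, the levels were 110.2 and 79.7. Without S0, S1 and S2 the class had 13.7 and 3.77, so the class values mix cluster make-up with level.

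The Trem2 stretch before the start (chr17:48346151-48346400, plus strand, GRCm38.p6) is shown because the gene was found both in macrophages and in stromal cells with few or no Tyrobp UMIs. It held TGAATCA, a match to the AP-1 motif, 9 bases before the start, and TTCCTC, the reverse complement of the PU.1 motif, 40 bases before it.
Trem2: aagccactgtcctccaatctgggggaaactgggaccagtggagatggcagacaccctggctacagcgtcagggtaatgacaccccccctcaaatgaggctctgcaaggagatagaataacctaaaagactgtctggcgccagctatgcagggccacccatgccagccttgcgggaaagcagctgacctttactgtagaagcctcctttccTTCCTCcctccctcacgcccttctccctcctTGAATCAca

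Lpl differed in the opposite direction between macrophages and fibroblasts. In fibroblast-like cells it stood at 161 CPM in the control and 611 in the knockout library (log2 ratio 1.92, interval 1.84 to 2.01), and 17.8% and 38.9% of thinned cells held a UMI. Cluster S13, with 36 control and 137 knockout cells, had the highest Lpl of the clusters with at least 15 cells in both libraries, 899.9 and 1339. In S16 the levels were 399.9 and 704, in S7 370.2 and 779, and in S6 406 and 688, so Lpl was higher in the knockout cells of each. It was higher in 7 of 8 fibroblast-like clusters with at least 15 cells in both libraries, the exception being S5 at 333 and 300.2. Control cells of S0, S1 and S2 had 38.5, 44.1 and 77.3 CPM of Lpl. These clusters held 202 of 639 control but 25 of 734 knockout fibroblast-like cells. Without them the class had 231 and 629, so here too the class values mix cluster make-up with level. Of 9 members with enough UMIs in fibroblast-like cells, 2 were higher, Lpl and Gpnmb (background 19.4%), and 4 were lower, Trem2, Fabp5, Spp1 and Cd36 (background 13.4%). Of these, Cd36 was at trace level, 2.35 and 0.278 CPM. Pericyte/smooth muscle-like cells had 333 CPM of Lpl in 52 control cells.

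Among named classes with at least 50 cells in both libraries, neutrophil-like cells were those with more Spp1 in the knockout library, at 303 and 776 CPM from 291 and 181 cells. These cells had 0.835 and 1.93 Spp1 UMIs each, against means of 1.82 and 0.624 in lymphocyte-like cells. The control value thus lay under the lymphocyte mean and the knockout value above it. A single knockout cell held 145 of the 349 UMIs. Cd9 was high in the same cells, at 1205 and 1761. Cluster L5 also held members, with Gpnmb at 175 and 20.6, Fabp5 at 604 and 77.6 and Lpl at 59.1 and 2.95.

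Genes that work with the members were grouped in lists by function. Of 59 genes in 7 lists of lipid handling, 51 had enough UMIs in monocyte/macrophage-like cells. Among these, 2 were higher past 1.5, 8 were lower and 41 lay within it, with a median log2 ratio of -0.10, against 7.66% higher, 9.75% lower and -0.03 over all genes. None of the 5 genes of Trem2 signalling passed in either direction, and Tyrobp stood at 1288 and 1572 CPM.

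Among genes of cholesterol efflux, 1 of 7 was higher, Nr1h3, the LXR alpha receptor that induces Apoe and its neighbours, at 16.7 and 28.4. The LXR targets Abca1 and Abcg1, which export cholesterol, stood at 431 and 319.6 and at 142 and 116, within 1.5. Apoc4, a neighbour of Apoc2, was lower at 7.23 and 2.18 from 16 and 6 UMIs. Of 17 genes of storage and the lysosome 2 were lower, the protease Ctsd at 1569 and 999 and the lipase Mgll at 13.1 and 6.55. Plin2, which coats lipid droplets, stood at 456 and 449.

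Of 6 genes of uptake, 1 was lower, the scavenger receptor Olr1 at 75.9 and 38.6. Of 8 regulators, 3 were lower: Tfec at 81.3 and 52.4, Rxra at 23.5 and 13.5 and Bhlhe40 at 193 and 123. Mitf, of the same family as Tfec, stood at 269.8 and 261. Of 6 osteopontin receptor genes, 1 was higher, the integrin gene Itga4 at 66.9 and 102. Cd44, another receptor of osteopontin, stood at 379 and 309. Of the other fatty acid binding proteins Fabp7 was lower at 6.33 and 4, with a wide interval from 25 UMIs, and Fabp4 stood at 38.9 and 31.3.

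The gene most like each member by Pearson r was looked up across 23 points, each a named class or macrophage subset with at least 50 cells in 1 library. The search covered only the 10037 genes with at least 20 UMIs over both libraries in monocyte/macrophage-like cells. Genes with fewer UMIs there could not be found, also for members that lay mainly in other cells. The subsets are part of their class, so the points overlap. Trem2 levels were most like those of the chemokine Ccl12 (0.952) and St18 (0.952), with the complement gene C1qc next. Gpnmb was most like 5033421B08Rik (0.976) and the chemerin receptor Cmklr1 (0.951), Cd36 most like Dcstamp (0.935), a fusion protein of osteoclasts, and Apoe most like Rab3il1 (0.919). Lpl was most like Emilin1 (0.959), with Eng and then Cd302 (0.949) next, and Apoc1 most like Eya4 (0.982) and Gas6 (0.968). Spp1 was most like Aprt (0.872) and the glycolytic gene Pkm (0.848), Cd9 most like Anxa1 (0.878), Fabp5 most like Rasa4 (0.858) and Apoc2 most like H2-T24 (0.802). C1qc and Dcstamp were among the marker genes used to name clusters.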

How the data were processed

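Whole tumours were dissociated, and droplet libraries of 3′ transcript ends were made and sequenced, per the labels' protocols. The authors deposited 1 matrix of raw UMI counts per library, 13766 barcodes with 173934025 UMIs for the control and 12251 with 137527647 for the knockout. The file headers name Cell Ranger 8.0.0, while the submitters' processing notes name Cell Ranger 3.1.3 and mm10. Which made the counts is not settled here.

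Barcodes under 500 detected genes or over 15% mitochondrial UMIs were dropped. Doublets called with Scrublet in scanpy 1.11.5 (148 control, 1.27%; 341 knockout, 3.16%) were removed. Cells were clustered with Leiden (2000 variable genes, 30 components, resolution 1), leaving the members and list genes out of clustering. Clusters were named from markers, at least 3 of which had to be detected. The members, lists and tests were chosen with earlier results of these data known. Counts were summed per class and library and given per 1000000 UMIs (CPM). Log2 ratios used a pseudocount of 1 UMI. Intervals are exact Poisson, conditional binomial or Clopper-Pearson. The interval code was tested on simulated counts. All 10 members are named, with list genes past 1.5-fold and a few others of those lists, and the genes most alike by r over log2 (CPM + 10).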

Additional observations from a re-analysis of the deposited data

Results flagged for a closer look

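Members whose difference passed 1.5-fold in monocyte/macrophage-like cells, and in the opposite direction in another named class of at least 50 cells in each library, are given here, where the interval of each ratio left out 1. Each difference between classes was not tested, since there is 1 library per genotype.

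Apoe had a log2 ratio of knockout over control of 0.76 in monocyte/macrophage-like cells and -1.22 in cDC1-like cells, the latter from 39 and 43 UMIs. In acinar-like cells, of which the control library had only 45, it had -1.14. Apoc2 had 2.04 and, in epithelial/tumour-like cells, -1.08, from 128 and 36 UMIs at 1.13 and 0.525 CPM. Over all 11516 kept control cells, 58 held an Apoc2 UMI and 10 of them held 68.7% of the gene's 201 UMIs. Lpl had -1.07 in monocyte/macrophage-like cells and 1.92 in fibroblast-like cells, where the class value mixes cluster make-up with level. In epithelial/tumour-like cells Lpl had 1.01, at 0.477 and 0.963 CPM. Spp1 had -1.04 in monocyte/macrophage-like cells and 1.35 in neutrophil-like cells.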

How the results depend on the processing

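Apoe, Apoc2, Lpl and Spp1 stayed past 1.5-fold in the same direction under all 15 alternatives in monocyte/macrophage-like cells; Cd9 did under 14, the exception being -0.58 with subsets weighted alike, and Cd36 under 13, with -0.24 in that setting and -0.58 where single cells were named by their markers. The members' median log2 ratio there, -0.23, was 0.00 under a strict cell filter, -0.63 with doublets kept, 0.08 as a mean over cells, 0.03 with subsets weighted alike, 0.01 where single cells were named by their markers, -0.04 without M3 and -0.03 without M3 and M11. With the strict filter 4 members were higher, and with subsets weighted alike 2 were lower. In the C1q subset the median of -0.34 was -0.87 with cells split by their own markers, with 1 of 9 members higher, 0.29 with coarser sub-clusters, with 4 members higher, and 0.06 as a mean over cells. The share of cells with a Trem2 UMI was 24.2% and 22.5% at 2000 UMIs and 31.7% and 34% without thinning, so it depends on depth. The alternatives without M3 or M11 and with the lymphocyte level subtracted were chosen after seeing the data. Cluster M11 held 10 cells, all knockout, in which the T cell markers Cd3g and Cd3e stood at 407 and 179 CPM. No paired analysis was possible because each genotype has 1 pooled library, and differences between mice cannot be told apart from those between genotypes.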
